A study of Mus musculus with 4 samples.

Results

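The genes described here are 39 genes of the contractile actomyosin apparatus and of smooth muscle, read from Affymetrix Mouse Gene 2.0 ST arrays that carried RNA of mouse fibroblasts. They were chosen by symbol: each row of the deposited table that carries a single gene symbol from the list was taken, and where a gene had several such rows the brightest was kept. All 39 genes had such a row, among 22180 genes in all. The arrays formed 2 groups of 2 biological replicates: fibroblasts of mice with the genotype Zip13KO, which lack the zinc transporter Zip13 (gene Slc39a13), and fibroblasts of WT mice. Neither strain, age, body site, passage nor culture condition is given in the labels, and the labels do not say whether the replicates came from separate animals or cultures, so p-values measure a spread between samples that may be technical only. The study asked about zinc balance inside the cell and the structure of the Golgi and the region around the nucleus.

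Fibroblasts pull on their surroundings with bundles of actin and non-muscle myosin that end in focal adhesions, where talin, vinculin, zyxin and paxillin link actin to integrins. Smooth muscle cells and myofibroblasts add isoforms of the same machinery, such as smooth muscle actin, transgelin and calponin. Many of these genes are transcribed by serum response factor (Srf), which binds the CArG box of DNA together with myocardin (Myocd) in smooth muscle or with the actin-sensing cofactors Mrtfa and Mrtfb in most cells. The 39 genes were divided by role into 14 smooth muscle isoforms, 12 ubiquitous filament genes, 9 ubiquitous adhesion and crosslinker genes, 2 genes of the striated muscle Z-disc and 2 transcription regulators.

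Promoter sequences are shown for 5 of the 39 genes. Of these, 4 are among the 6 genes with an exact CArG box. Acta2 was added because it fell strongly and holds only inexact ones. The windows of Myl6 and Ldb3, which also hold an exact box, are not shown. The sequences come from RefSeq (build GRCm38.p6) and run from 250 bases before to 50 bases after the annotated start, on the strand of the gene. Capitals mark CArG boxes, CArG-like boxes with a single G or C among their 6 central letters, and the MCAT box CATTCC or its complement GGAATG, which TEAD factors bind. The windows are chr2:156775214-156775513 on the plus strand for Myl9, chr19:34255324-34255623 on the minus strand for Acta2 and chr10:79988350-79988649 on the plus strand for Cnn2. Those of the remaining genes are chr14:20929148-20929447 on the plus strand for Vcl and chr17:46556113-46556412 on the minus strand for Srf.
Myl9: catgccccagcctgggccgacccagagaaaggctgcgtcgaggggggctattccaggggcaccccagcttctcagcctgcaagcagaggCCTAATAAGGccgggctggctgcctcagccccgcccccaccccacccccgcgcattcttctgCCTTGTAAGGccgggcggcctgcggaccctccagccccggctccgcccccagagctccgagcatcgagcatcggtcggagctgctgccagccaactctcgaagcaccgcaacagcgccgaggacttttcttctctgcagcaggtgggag
Acta2: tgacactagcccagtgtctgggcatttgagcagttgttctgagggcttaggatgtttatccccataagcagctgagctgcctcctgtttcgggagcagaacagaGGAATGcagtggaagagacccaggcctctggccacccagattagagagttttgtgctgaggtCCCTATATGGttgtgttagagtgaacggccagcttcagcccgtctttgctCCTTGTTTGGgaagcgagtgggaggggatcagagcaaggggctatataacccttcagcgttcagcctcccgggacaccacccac
Cnn2: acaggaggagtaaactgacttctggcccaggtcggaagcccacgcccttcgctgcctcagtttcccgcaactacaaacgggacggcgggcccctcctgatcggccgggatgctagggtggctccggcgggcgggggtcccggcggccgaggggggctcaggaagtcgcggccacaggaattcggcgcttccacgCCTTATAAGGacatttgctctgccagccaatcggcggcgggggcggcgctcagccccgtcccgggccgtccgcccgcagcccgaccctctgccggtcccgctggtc
Vcl: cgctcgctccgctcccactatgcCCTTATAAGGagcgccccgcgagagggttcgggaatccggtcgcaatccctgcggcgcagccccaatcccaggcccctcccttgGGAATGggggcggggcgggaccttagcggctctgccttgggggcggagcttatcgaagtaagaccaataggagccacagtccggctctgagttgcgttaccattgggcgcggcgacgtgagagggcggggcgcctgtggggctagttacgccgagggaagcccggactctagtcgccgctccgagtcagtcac
Srf: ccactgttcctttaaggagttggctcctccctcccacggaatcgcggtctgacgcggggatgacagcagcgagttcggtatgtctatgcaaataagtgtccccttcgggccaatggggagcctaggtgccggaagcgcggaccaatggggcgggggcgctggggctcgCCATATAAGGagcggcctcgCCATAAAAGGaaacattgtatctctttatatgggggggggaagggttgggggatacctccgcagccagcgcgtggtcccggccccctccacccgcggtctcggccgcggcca

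A promoter window was present for 32 of the 39 genes, with 39 windows in all because some genes have a second start. An exact CArG box lay in windows of 6 of these 32 genes (18.8%), against 1.81% of 27025 genes in the whole promoter table. The 6 genes were Myl9, Cnn2, Vcl and Myl6, which fell, and Srf and Ldb3, which did not pass the test. Cnn1, Tpm2, Mylk, Pdlim5 and Flna, which also fell, had windows without an exact box, and Actg2 and Tagln had no window. In Myl9 the box CCTAATAAGG began 161 bases before the start, and in Cnn2 the box CCTTATAAGG began 56 bases before it. The Vcl window held the letters CCTTATAAGG too, beginning 227 bases before the start. Srf held a pair, CCATATAAGG and CCATAAAAGG, which began 82 and 62 bases before its own start. The CArG-like form was added after the sequences had been seen, and was found in 5 of the 32 genes (15.6%), against 9.69% in the whole table. Acta2 held CCCTATATGG and CCTTGTTTGG in that form, beginning 84 and 34 bases before the start. The MCAT box was found in 13 of the 32 genes (40.6%), against 16.6% in the whole table. Both strands were searched, and no MCAT box overlapped a CArG box in the windows shown. The list holds Srf itself and genes known to be transcribed by it, so a high CArG share comes with the choice of genes. The shares therefore describe the list and not a result of these arrays. These matches describe letters within 300 bases and show no binding.

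Of 12 fibroblast markers, 10 exceeded the median of the array on 2 or more arrays. The brightest, vimentin (Vim), was at 12.61 and 12.64 on the Zip13KO arrays, against 12.85 and 12.75 on the WT arrays (log2 intensity). Of the 12 markers, 6 fell and 1 rose, where 10.1% of all genes fell and 7.0% rose. Slc39a13 itself had log2 intensities of 8.89 and 8.98 on the Zip13KO arrays, against 8.94 and 8.85 on the WT arrays (difference 0.04, limma adjusted p = 0.820). Whether its probes cover the deleted sequence is not known, so the level is no check of the genotype, and directions below follow the labels as given. Pearson's r over all rows was 0.994 between the Zip13KO arrays, 0.994 between the WT arrays and 0.983 to 0.985 between groups. With 2 arrays a group, the smallest p of a two-sided exact permutation test of a single gene is 0.333, and calls were therefore taken from limma's moderated test across all genes, at a Benjamini-Hochberg adjusted p under 0.05.

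Contractile genes were lower on the Zip13KO arrays more often than genes at large, and a few smooth muscle isoforms were lower by a large amount. The list was chosen with earlier results of these data known, so the shares below are descriptive and no independent test. Of the 39 genes, 25 fell and 1 rose, which is 64.1% lower where 10.1% of all 22180 genes fell, 7.0% rose and 17.1% changed in either direction. For 29 of the 39 genes (74.4%) both Zip13KO arrays lay below both WT arrays, as they did for 27.3% of all genes, and for 2 both lay above, as for 24.1% of all genes. The median difference, Zip13KO minus WT, was -0.39 log2 units over the 39 genes and -0.00341 over all genes. Bright genes were called more often, and among 1468 genes with a mean log2 intensity of at least 10, 22.6% fell and 13.7% rose. Of the 18 contractile genes that bright, 14 fell and none rose in limma, with none higher at an unadjusted p under 0.05. These are bulk samples, in which fewer cells of a type and less RNA per cell cannot be told apart.

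**Figure D1:**
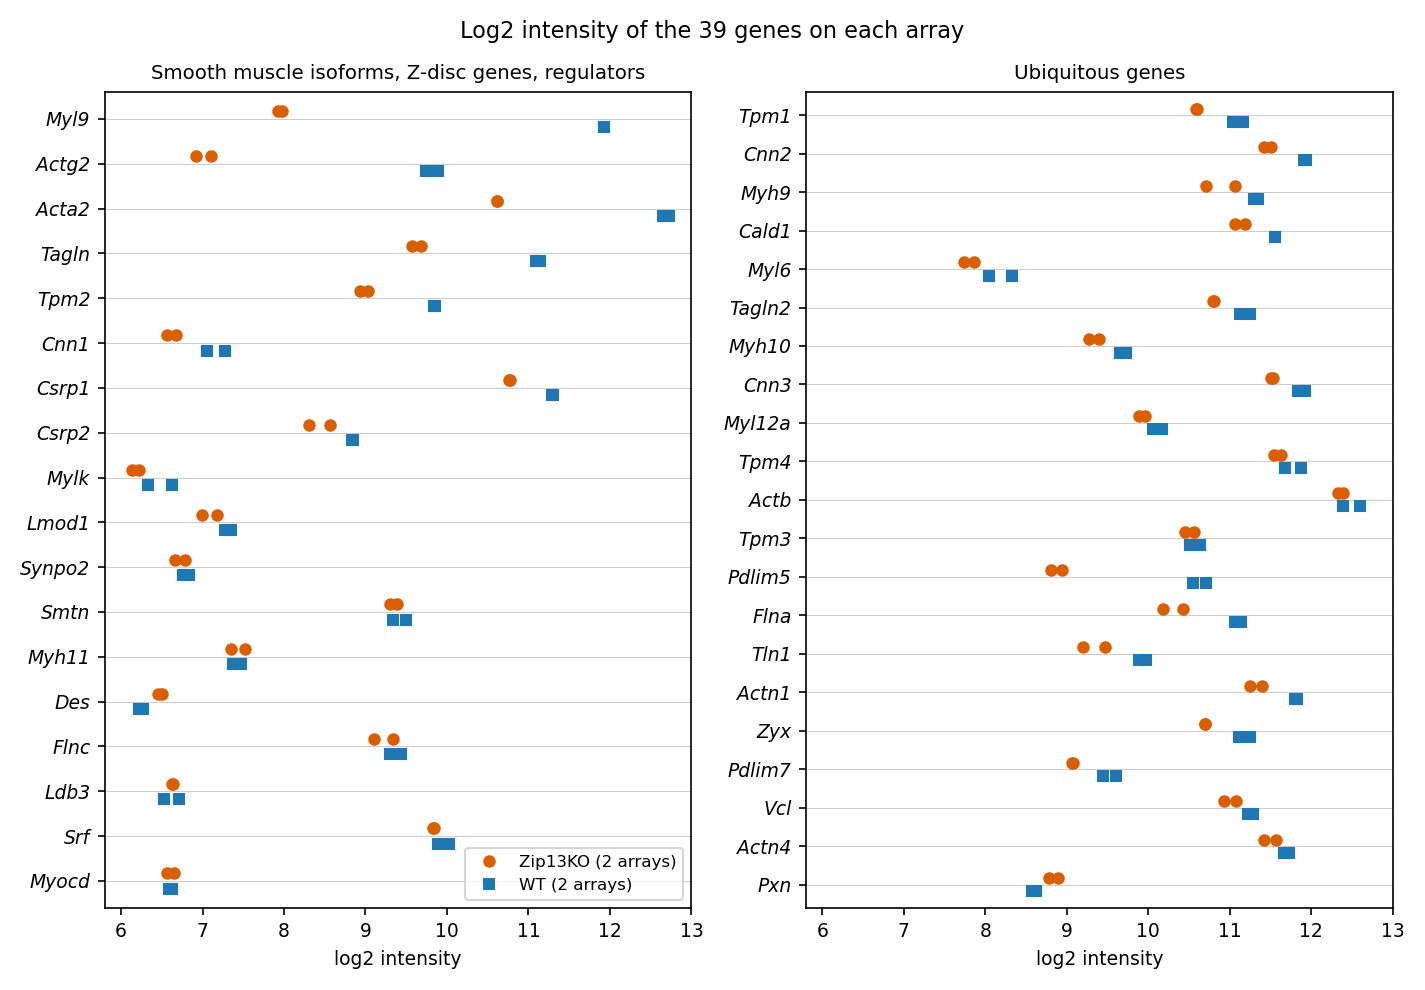
Log2 intensity (horizontal axis) of each of the 39 genes (rows) on the 2 Zip13KO arrays (orange circles) and the 2 WT arrays (blue squares), with smooth muscle isoforms, Z-disc genes and regulators on the left and ubiquitous genes on the right. The gap is widest for Myl9, at 7.97 and 7.92 on the Zip13KO arrays against 11.93 and 11.93 on the WT arrays, and most ubiquitous genes show a small shift to the left.

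Among the 14 smooth muscle isoforms 9 fell, and 4 of these fell by more than 2-fold, a size reached by 0.739% of all genes. Myl9, a regulatory light chain whose phosphorylation switches myosin on, had intensities of 251 and 242 on the Zip13KO arrays, against 3910 and 3898 on the WT arrays. Both Zip13KO values lay far under both WT values, and the replicates of each group lay close together. The difference of -3.99 log2 units (95% interval -4.13 to -3.84, limma adjusted p = 6.71e-17) is 15.8-fold lower and was the lowest of all 22180 genes.

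The smooth muscle actins came next. Actg2, the actin typical of gut smooth muscle, had log2 intensities of 7.10 and 6.92 on the Zip13KO arrays, against 9.89 and 9.74 on the WT arrays. It was 7.0-fold lower (-2.81, SE 0.09, adjusted p = 7.73e-14 in limma) and held rank 9 from the lowest difference. Acta2, the actin of vascular smooth muscle and of myofibroblasts, had 10.61 and 10.62 on the Zip13KO arrays, against 12.73 and 12.66 on the WT arrays. Its groups did not overlap and the replicates lay close together. Acta2 fell by 2.08 log2 units (SE 0.06, limma adjusted p = 2.93e-14), which is 4.22-fold lower and rank 27. Since the actins are so alike in sequence, the separate values of Acta2 and Actg2 are uncertain.

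Transgelin and the smooth muscle tropomyosin followed. Tagln, an actin-bundling protein of smooth muscle, had 9.57 and 9.68 on the Zip13KO arrays, against 11.14 and 11.09 on the WT arrays (2.80-fold lower, limma adjusted p = 2.04e-11). Tpm2, beta-tropomyosin, had 8.93 and 9.03 on the Zip13KO arrays, against 9.85 and 9.84 on the WT arrays. In both genes every Zip13KO value lay below every WT value, and Tpm2 fell by 0.87 log2 units (SE 0.07, limma adjusted p = 6.13e-08). The 4 other isoforms that fell did so by less. Cnn1, the calponin of differentiated smooth muscle, fell by 0.55 (SE 0.09). It was dim, at 6.68 and 6.56 on the Zip13KO arrays against 7.28 and 7.05 on the WT arrays, and exceeded the array median on 3 arrays. The LIM proteins Csrp1 and Csrp2, which bind actin-associated partners, fell as well (-0.53, SE 0.06, and -0.41, SE 0.09). Mylk, the kinase that phosphorylates the regulatory light chains, was dim, at 6.13 and 6.22 on the Zip13KO arrays against 6.62 and 6.33 on the WT arrays. Its difference was -0.30 (limma adjusted p = 0.0316), and it was -0.16 without WT replicate 1 (adjusted p = 0.444) and -0.26 without Zip13KO replicate 1 (adjusted p = 0.0827).

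The other 5 smooth muscle isoforms did not pass the test, and 4 of them, all but Smtn, had mean log2 intensities of 7.44 or less in both groups. Myh11, the smooth muscle myosin heavy chain, had 7.53 and 7.35 on the Zip13KO arrays, against 7.48 and 7.37 on the WT arrays. The groups overlapped and the difference was 0.01, with a 95% interval of -0.17 to 0.19 and a limma adjusted p of 0.955. Des, the muscle intermediate filament protein desmin, lay below the array median on every array, at 6.50 and 6.45 on the Zip13KO arrays against 6.27 and 6.22 on the WT arrays. Its adjusted p was 0.0571 in limma with a difference of 0.23. A row that carries the symbols Gm15179 and Des was at -0.06 (adjusted p = 0.826 in a limma fit over all rows). Lmod1, which nucleates actin filaments in smooth muscle, was at -0.23 (adjusted p = 0.0851), and at -0.32 without Zip13KO replicate 1 (adjusted p = 0.0226). Smtn, smoothelin, had 9.30 and 9.39 on the Zip13KO arrays against 9.49 and 9.34 on the WT arrays (-0.07, adjusted p = 0.652), and Synpo2, an actin-binding protein of the Z-disc and of stress fibres, was at -0.08 (adjusted p = 0.664). The table gives no detection calls, so whether Myh11, Des, Lmod1 and Synpo2 were expressed at all was not tested.

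**Figure D2:**
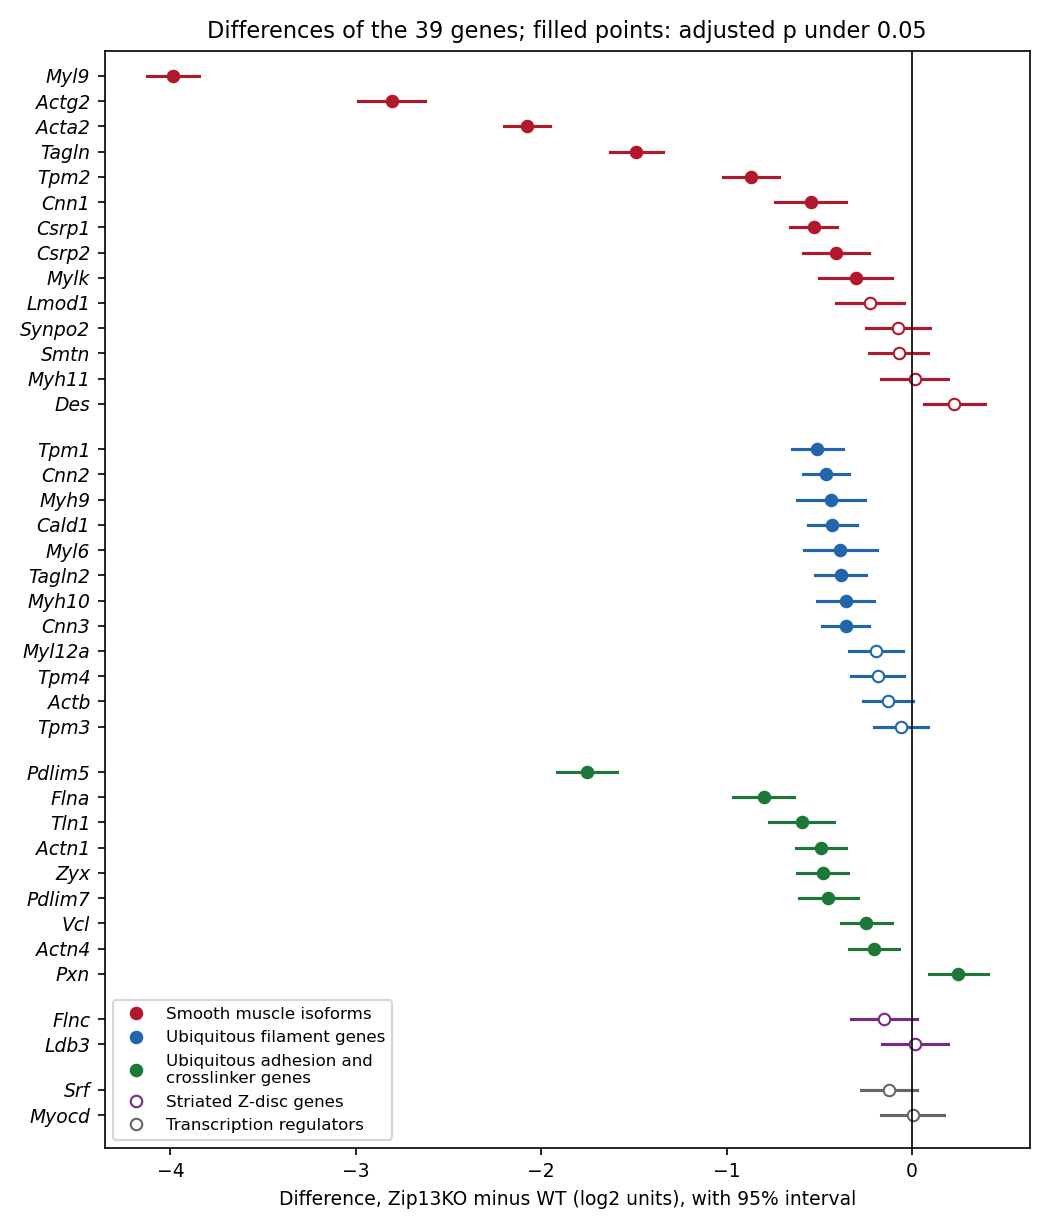
Difference between Zip13KO and WT in log2 units (horizontal axis, points) with its 95% interval from limma (lines) for each of the 39 genes, coloured by role. Filled points passed an adjusted p under 0.05. The smooth muscle isoforms spread from -3.99 to 0.23, while the ubiquitous filament genes lie between -0.51 and -0.06.

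The ubiquitous filament genes fell by small and similar amounts. Of 12 genes, 8 fell and none rose in limma, with 10 lower and none higher at an unadjusted p under 0.05. The 8 that fell lay between -0.51 and -0.36 log2 units, which is 1.28-fold to 1.43-fold lower. Tpm1, alpha-tropomyosin, had 10.58 and 10.60 on the Zip13KO arrays, against 11.16 and 11.04 on the WT arrays (-0.51, SE 0.07, limma adjusted p = 1.53e-05). Cald1, caldesmon, which holds back myosin on actin, fell by 0.43 (SE 0.06). The calponins Cnn2 (-0.46) and Cnn3 (-0.36) fell with an SE of 0.06 each, and Tagln2, a transgelin found outside muscle, fell by 0.39 (SE 0.07).

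The heavy chains of non-muscle myosin II fell as well. Myh9, the chain of myosin IIA, had 10.71 and 11.06 on the Zip13KO arrays, against 11.34 and 11.30 on the WT arrays. Zip13KO replicate 1 was the lower of the pair, and without it the difference of -0.44 (limma adjusted p = 0.00124) was -0.26 (adjusted p = 0.00389). Myh10, the chain of myosin IIB, fell by 0.36 (SE 0.07). Myl6, the essential light chain, had 7.86 and 7.73 on the Zip13KO arrays, against 8.04 and 8.33 on the WT arrays (-0.39, adjusted p = 0.00624). Without WT replicate 2 its difference was -0.24 (adjusted p = 0.132).

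Actb, cytoplasmic beta-actin, had 12.39 and 12.33 on the Zip13KO arrays, against 12.59 and 12.39 on the WT arrays, and was not past the threshold (-0.13, 95% interval -0.27 to 0.01, limma adjusted p = 0.221). The lower WT value lay within the range of the Zip13KO arrays, and without WT replicate 2 the difference was -0.23 (adjusted p = 0.0407). Outside the 39 genes, the other cytoplasmic actin Actg1 was at -0.14 (adjusted p = 0.103), and the striated muscle actins Acta1 and Actc1 were at -0.06 and 0.03 (adjusted p = 0.783 and 0.887). These 3 actins were named after their values had been seen. Tpm3 was at -0.06 (adjusted p = 0.687).

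Tpm4 depended on the row that stood for it. Its brightest row had 11.54 and 11.63 on the Zip13KO arrays, against 11.67 and 11.87 on the WT arrays, and did not pass (-0.19, limma adjusted p = 0.0767). It did pass without WT replicate 1 (-0.29, adjusted p = 0.0141) and without Zip13KO replicate 2 (-0.23, adjusted p = 0.00718). A further row for Tpm4 had 11.20 and 11.10 on the Zip13KO arrays, against 11.74 and 11.92 on the WT arrays. That row fell by 0.68 log2 units in a limma fit over all rows (adjusted p = 0.00826), and the mean of both rows passed at -0.43 (adjusted p = 1.81e-04). The second row of Tagln2 fell by 0.42, close to the 0.39 of its brightest row.

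**Figure D3:**
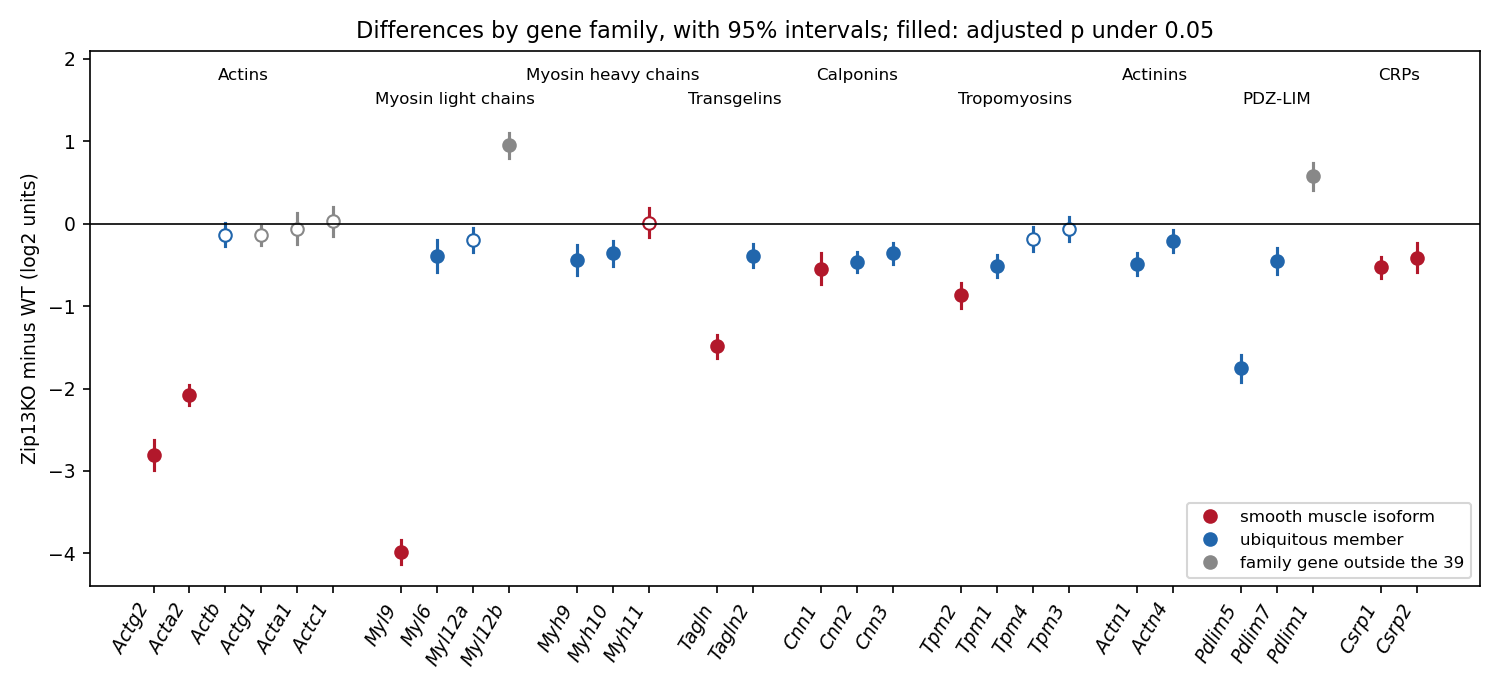
Differences between Zip13KO and WT in log2 units (vertical axis) with 95% intervals from limma, by gene family, for smooth muscle isoforms (red), ubiquitous genes of the 39 (blue) and family genes outside the 39 (grey). Filled points passed an adjusted p under 0.05. Myl9 at -3.99 and Myl12b at 0.95 stand at opposite ends of the myosin light chains.

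The regulatory light chains of myosin moved in different directions. Against Myl9 at -3.99, the ubiquitous Myl12a had 9.96 and 9.88 on the Zip13KO arrays and 10.06 and 10.17 on the WT arrays, a difference of -0.19 (limma adjusted p = 0.0694). Its adjusted p was 0.0464 where dim genes were filtered out and 0.0408 without Zip13KO replicate 1. A further, dimmer row for Myl12a was at 0.02 (adjusted p = 0.968 in a fit over all rows), and the mean of both rows was at -0.09 (adjusted p = 0.578). Without WT replicate 2 the brightest row was at -0.14 (adjusted p = 0.442). Myl12b, a close paralogue of Myl12a outside the 39 genes, had 9.61 and 9.60 on the Zip13KO arrays, against 8.67 and 8.63 on the WT arrays. It rose by 0.95 (95% interval 0.80 to 1.10, limma adjusted p = 1.72e-08). A row that carries both symbols was at -0.09 (adjusted p = 0.653 in a fit over all rows), and sequences this alike may share signal between rows. The 95% intervals of Myl9, Myl12a and Myl12b did not overlap, and the differences between these genes were not tested.

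All 9 adhesion and crosslinker genes passed the test, 8 of them lower and Pxn higher. Pdlim5, a PDZ-LIM protein that binds alpha-actinin, had 8.81 and 8.94 on the Zip13KO arrays, against 10.71 and 10.55 on the WT arrays. This was 3.37-fold lower (-1.75, SE 0.08, limma adjusted p = 1.11e-11) and rank 45 from the lowest difference, the largest change among the 21 ubiquitous genes. The 7 other genes that fell lay between -0.80 and -0.21. Flna, filamin A, which crosslinks actin into networks, had 10.17 and 10.43 on the Zip13KO arrays, against 11.14 and 11.06 on the WT arrays (-0.80, adjusted p = 5.29e-07). Tln1, the talin that switches integrins on, had 9.20 and 9.47 on the Zip13KO arrays, against 9.97 and 9.89 on the WT arrays (-0.60, adjusted p = 4.23e-05).

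Actn1, an alpha-actinin that ties actin bundles together, fell by 0.49 (SE 0.06), and its paralogue Actn4 by 0.21 (SE 0.06). Zyx, zyxin, which gathers at strained stress fibres, fell by 0.48 (SE 0.07), as did the PDZ-LIM protein Pdlim7 at 0.45 (SE 0.08). Vcl, vinculin, which reinforces the link between talin and actin, had 10.93 and 11.07 on the Zip13KO arrays, against 11.28 and 11.22 on the WT arrays (-0.25, limma adjusted p = 0.0125). Pxn, paxillin, a scaffold of focal adhesions, had 8.79 and 8.89 on the Zip13KO arrays, against 8.62 and 8.57 on the WT arrays. It rose by 0.25 (adjusted p = 0.0287 in limma). The calls of Vcl, Actn4 and Pxn did not hold in every setting. The call of Vcl was lost without Zip13KO replicate 1 (-0.18, adjusted p = 0.0827) and without WT replicate 1 (-0.22, adjusted p = 0.109). That of Actn4 was lost without Zip13KO replicate 1 (-0.13, adjusted p = 0.212), WT replicate 1 (-0.18, adjusted p = 0.211) or WT replicate 2 (-0.23, adjusted p = 0.0655). That of Pxn was lost without Zip13KO replicate 2 (0.19, adjusted p = 0.178), WT replicate 1 (0.27, adjusted p = 0.0686) or WT replicate 2 (0.22, adjusted p = 0.159).

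Replicates of the adhesion and crosslinker genes differed together, in an order that many of the other genes shared. Zip13KO replicate 1 was below Zip13KO replicate 2 for all 9 genes, by a median of 0.14 log2 units, and WT replicate 1 was above WT replicate 2 for all 9, by a median of 0.08. Over all 39 genes the same orders held for 26 and 32. They held for 7 and 12 of the 14 smooth muscle isoforms, and for 8 and 7 of the 12 ubiquitous filament genes. For all 9 genes the difference between groups was larger than either gap. Over all 39 genes it was larger for 29. Neither these counts nor those of replicate order were taken over all genes, so whether they are unusual is not known. What sets these replicates apart was not tested.

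Neither transcription regulator passed the test. Srf had 9.83 and 9.84 on the Zip13KO arrays, against 10.03 and 9.89 on the WT arrays. The groups did not overlap, but the difference was only -0.12, with a 95% interval of -0.27 to 0.03 and a limma adjusted p of 0.306. Myocd, the smooth muscle cofactor of Srf, was dim at 6.66 and 6.56 on the Zip13KO arrays, against 6.62 and 6.59 on the WT arrays (0.00325, adjusted p = 0.989). Of the Z-disc genes, Flnc, a filamin of muscle, had 9.10 and 9.33 on the Zip13KO arrays against 9.44 and 9.30 on the WT arrays (-0.15, adjusted p = 0.288). Without Zip13KO replicate 2 Flnc was at -0.27. With all 4 arrays Ldb3 was at 0.01 (limma adjusted p = 0.954). In the limma fit of all 4 arrays, none of these 4 genes had an unadjusted p under 0.05.

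**Figure D4:**
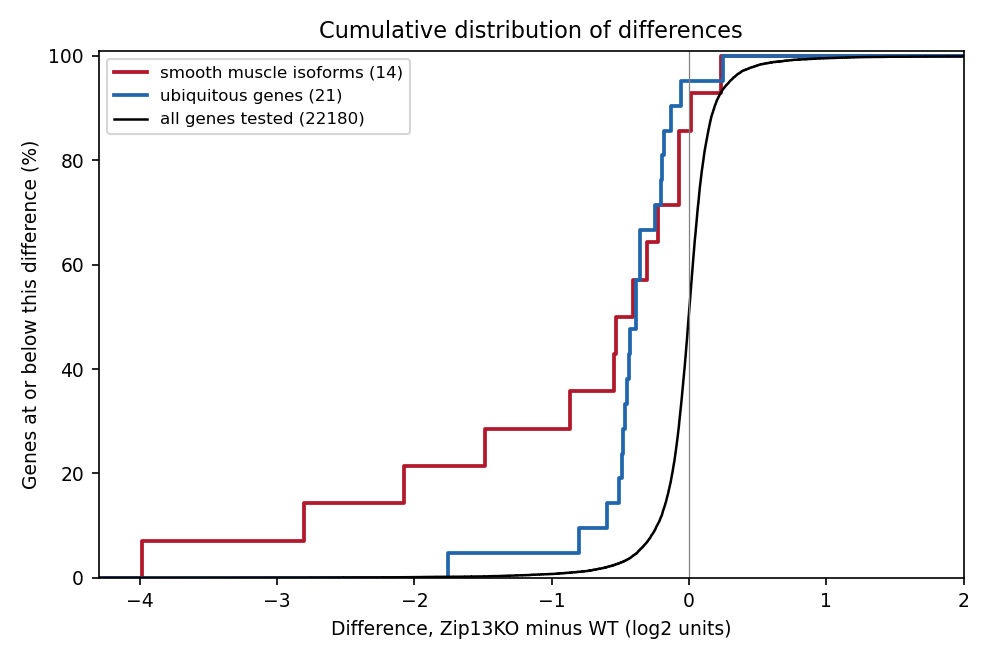
Share of genes (vertical axis, percent) at or below a given difference between Zip13KO and WT (horizontal axis, log2 units), for 14 smooth muscle isoforms (red), 21 ubiquitous genes (blue) and all 22180 genes tested (black). Both member curves lie left of the black curve over most of their range, with medians of -0.47 and -0.39 against -0.00341 over all genes, and the 2-fold mark at -1 is passed by 4 genes of the red curve and 1 of the blue.

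The smooth muscle isoforms and the ubiquitous genes had similar medians and different spreads. The median difference was -0.47 log2 units over 14 smooth muscle isoforms and -0.39 over 21 ubiquitous genes. By share, 64.3% of the smooth muscle isoforms and 76.2% of the ubiquitous genes fell, both beside the 10.1% of all genes. The ubiquitous genes were brighter, with a median WT log2 intensity of 11.18 against 9.13 for the isoforms. Bright genes were called more often, and 22.6% of genes with a mean log2 intensity of at least 10 fell. At least 2-fold lower were 4 of the 14 isoforms (Myl9, Actg2, Acta2 and Tagln) and 1 of the 21 ubiquitous genes (Pdlim5). The difference between these groups of genes was not tested.

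Cofactors and further targets of Srf leaned lower. Of 38 such genes measured outside the 39, 19 fell and 2 rose. Over all genes 10.1% fell and 7.0% rose, and among genes with a mean log2 intensity of at least 10, 22.6% fell and 13.7% rose. Mrtfa, the actin-sensing cofactor, had 8.80 and 8.86 on the Zip13KO arrays, against 9.44 and 9.35 on the WT arrays, and fell by 0.56 (SE 0.07). Mrtfb was at -0.02 (limma adjusted p = 0.903). Palld, palladin, which organises actin bundles, had 8.25 and 8.38 on the Zip13KO arrays, against 9.66 and 9.59 on the WT arrays, and fell by 1.31 (SE 0.08). The kinase Nuak1 (-1.26), the paxillin relative Tgfb1i1, also called Hic-5 (-0.90), and the fibronectin receptor chain Itga5 (-0.85) fell as well. Pdlim1, a relative of Pdlim5, rose by 0.58 and the small heat shock protein Hspb1 rose by 0.44. With the mean of its rows in place of the brightest, Hspb1 was at 0.24 and did not pass (adjusted p = 0.0527). Mrtfa and Mrtfb are named here for their role, after their values had been seen.

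Of 36 other actins, myosins and actin regulators, 12 fell and 3 rose, where 10.1% of all genes fell and 7.0% rose. For genes with a mean log2 intensity of at least 10, the shares were 22.6% and 13.7%. The genes that fell with the smallest adjusted p were Tmsb4x (-0.72), which sequesters actin monomers, Fscn1 (-0.59), which bundles filopodia, Pfn2 (-0.76) and gelsolin (Gsn, -0.63). Ezr, ezrin, which ties actin to the membrane, rose by 1.17 (SE 0.07), beside Myl12b and Myo6 (0.34). Myo6 was at 0.25 without WT replicate 1 (adjusted p = 0.136) and at 0.23 without Zip13KO replicate 2 (adjusted p = 0.128).

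Further genes of focal adhesions and LIM proteins went both ways. Of 31 other focal adhesion and LIM genes, 10 fell and 6 rose, where 10.1% of all genes fell and 7.0% rose. Among genes with a mean log2 intensity of at least 10 these shares were 22.6% and 13.7%. Parvb, beta-parvin, which links integrins to actin, had 6.44 and 6.79 on the Zip13KO arrays, against 8.63 and 8.58 on the WT arrays, and fell by 1.99 (SE 0.10). The integrin chains Itgav (-0.96), Itgb5 (-0.86) and Itgb1 (-0.82) fell too, and with the mean of its rows Itgav was at -0.62 (adjusted p = 5.75e-05). Sorbs3, vinexin, which binds vinculin, had 10.15 and 10.17 on the Zip13KO arrays, against 8.91 and 8.90 on the WT arrays, and rose by 1.26 (SE 0.07). Tns3 (0.46), Itgbl1 (0.34) and Tns2 (0.30) rose as well, and Tns2 was at 0.20 without Zip13KO replicate 2 (limma adjusted p = 0.188) and at 0.29 without WT replicate 1 (adjusted p = 0.0637).

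Markers of other contractile cells moved in part on the same arrays. Beside the marker counts below, 10.1% of all genes fell and 7.0% rose. Of 8 pericyte markers 2 fell, Mcam (-1.27) and Cspg4 (-1.08), both of which smooth muscle also expresses. The summed intensity of all 8 was 856 to 889 on the Zip13KO arrays, against 1264 to 1306 on the WT arrays. The median difference of the 8 was only -3.43e-04 log2 units. Of 12 markers of skeletal and cardiac muscle 1 fell, Tnnt2 (-1.51). The summed intensity of the 12 was 1469 to 1497 on the Zip13KO arrays, against 1832 to 2004 on the WT arrays. Tnnt2 alone had 221 and 225 on the Zip13KO arrays, against 692 and 585 on the WT arrays. The median difference of the 12 was -0.03 log2 units. No marker is at 0 in such a table, and the rest of these 2 lists did not pass. Of 8 endothelial markers none passed in limma (1 at an unadjusted p under 0.05), and of 7 epithelial markers none did (1 at an unadjusted p under 0.05). Of 8 macrophage markers Cd14 (-0.32) and Csf1r (-0.26) fell and Cd68 (0.40) rose, and each of the 3 calls was lost with at least 1 array left out (Cd68 was at 0.13 without WT replicate 2, adjusted p = 0.562, and at 0.66 without WT replicate 1). Summed intensities were 710 to 733 on the Zip13KO arrays against 687 to 697 on the WT arrays for endothelial markers, 812 to 844 on the Zip13KO arrays against 814 to 870 on the WT arrays for epithelial markers, and 806 to 818 on the Zip13KO arrays against 822 to 865 on the WT arrays for macrophage markers. The part of such cells in the lower contractile genes was not tested. Among the fibroblast markers Pdgfrb (-0.92), Col1a1 (-0.89), Fn1 (-0.67), Col1a2 (-0.46), S100a4 (-0.40) and Vim (-0.17) fell while Pdgfra rose by 1.04. Without WT replicate 1 Vim was at -0.13 (adjusted p = 0.383).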

How the data were processed

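Total RNA of mouse fibroblasts was hybridised to 4 arrays, 2 per genotype, per the labels. The authors deposited intensity values on a linear scale, from 21.8 to 10826. The submitters' processing notes name Affymetrix Expression Console and RMA without versions. Which annotation was used, and whether rows are genes or transcripts, no label or header gives. RMA equalises the distributions of the arrays, which hides a shift common to most genes, and it compresses dim genes. Here log2 was taken without a pseudocount. The number of arrays limits the precision.

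Of 41345 rows, 23521 had 1 gene symbol in the platform annotation, 1814 several and 16010 none here. The RefSeq gene table matched 23328 of the single-symbol rows and changed 0 symbols. The brightest row of each gene was kept (22180 genes) and no filter was applied. Differences, Zip13KO minus WT, were tested in R 4.3.3 by limma 3.58.1 (lmFit, eBayes with trend, two-sided, 2 residual and 15.1 prior degrees of freedom), adjusted over all genes. The pipeline was tested on simulated data. Plots used matplotlib 3.10.9.

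The 39 genes and the other lists were chosen with earlier results of these data known. The text names all 39 genes, Slc39a13, up to 4 genes per direction with the smallest adjusted p from each list, and all called marker genes. The result of 1 further list is not reported here. The alternatives tried were quantile normalization, median centring, a low-value filter (2 arrays or more above their median), eBayes without trend or robust, averaged rows, a fit over every row, a replicate block, and leaving out arrays in turn. A crossed block was added after the data had been seen.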

Additional observations from a re-analysis of the deposited data

How the results depend on the processing

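The counts and medians held in most settings. The 25 genes that fell were 19 to 28 over 13 alternatives, with 23 to 27 when an array was left out. The smooth muscle isoforms that fell numbered 7 to 10 and the ubiquitous genes 12 to 18. The medians stayed between -0.54 and -0.42 for the isoforms and between -0.43 and -0.37 for the ubiquitous genes. Of the 26 genes past the threshold, 19 were past it under every alternative run. The filter on low values removed Mylk and Des, which left 37 of the 39 genes. The fit over all rows of the table gave the fewest calls, with 1806 genes in all (1137 lower and 669 higher, against 2234 and 1552), and there Mylk, Csrp2, Myl6, Myh9, Vcl, Actn4 and Pxn did not pass, nor did Myo6, Itgbl1, Tns2, S100a4, Vim, Cd14, Csf1r and Cd68 among the other genes named. Actn4 and Vim did not pass without a trend either. In the fit over all rows more rows are tested and the variances are estimated over all of them. Unadjusted p-values in limma were larger there too, at 5.45e-06 against 1.75e-10 for Myl12b and 0.0647 against 0.0147 for Tpm4. How much each of these lowers the count was not tested. The count of genes that rose, 1 in the main setting, was 0 with the replicate block and over all rows, 2 without a trend, and 0 to 1 with an array left out. No gene followed through the alternatives changed direction while past the threshold.

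The replicate numbers are not stated to pair the samples. Deviations of replicate 1 from its group mean had a correlation of -0.16 over genes between the genotypes. With the replicate block 24 of the 39 genes fell, 9 of them smooth muscle isoforms and 15 ubiquitous genes, and 3364 genes were called in all. Actn4 then had an adjusted p of 0.0798 in limma and Pxn of 0.0772. Vim did not pass there either. With crossed replicate numbers 28 fell, 2 rose and 5208 genes were called in all. Dim genes such as Mylk, Des and Myocd lie near the array median, where differences are compressed.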
